A study of Mus musculus with 21 samples.

Results

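Gli1, Gli2, Gli3 and Sufu make up the transcriptional end of the Hedgehog pathway, and their transcripts were followed in mouse models of basal cell carcinoma (BCC), a skin tumour. The rows were taken by gene name from the count table, which gave 4 genes of 23713. RNA from tail keratinocytes was sequenced in 21 libraries. Each of 3 tumour models, SmoM2, Gnas-eKO and PKI, had 4 tumour-bearing libraries (BCC) and 3 libraries from tumour-free control mice (Con). The SmoM2 mice were sampled at day 29 from the induction of tumours, the Gnas-eKO mice at day 42 and the PKI mice at day 57, with separate controls for each. The name SmoM2 stands for a constitutively active Smoothened, the membrane protein that turns on Hedgehog signalling. Gnas is the gene of the G protein subunit that activates adenylyl cyclase and so protein kinase A, and PKI commonly stands for a peptide that inhibits this kinase. The labels do not describe the alleles, the Cre driver, the induction agent, the strain, the age or the sex of the mice, nor what the Con mice share with them. Each model was its own batch, so model, day and batch cannot be told apart, and BCC was compared with Con within a model.

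Gli proteins are zinc finger transcription factors that carry the Hedgehog signal to the genome. Gli2 is the main primary activator in skin, Gli1 is itself a transcriptional target of the pathway and adds to its output, and Gli3 acts mostly as a repressor. Sufu binds Gli proteins in the cytoplasm and holds them inactive. When Smoothened is off, protein kinase A phosphorylates Gli2 and Gli3 and so starts their degradation or their processing to repressors, so the kinase acts as a brake on the pathway downstream of Smoothened.

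In GENCODE M21 (GRCm38) Gli1 lies on chromosome 10 (127329882 to 127341974, minus strand), Gli2 on chromosome 1 (118834132 to 119053619, minus strand), Gli3 on chromosome 13 (15463235 to 15730026, plus strand) and Sufu on chromosome 19 (46396896 to 46488804, plus strand). All are protein-coding, and their exons together cover 4.995, 6.869, 9.589 and 7.691 kb. The windows of 250 bases before the RefSeq starts of Gli2, Gli3 and Sufu are shown because these genes changed to different degrees in the BCC libraries. No window is shown for Gli1. Capitals mark the core of the Gli binding motif, ACCACCC or its reverse complement GGGTGGT.

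Gli2: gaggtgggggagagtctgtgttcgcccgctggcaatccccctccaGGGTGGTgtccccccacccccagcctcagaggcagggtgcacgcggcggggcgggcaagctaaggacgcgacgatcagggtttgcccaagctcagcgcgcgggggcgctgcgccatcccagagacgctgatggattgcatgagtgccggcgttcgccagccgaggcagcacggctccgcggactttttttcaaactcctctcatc
Gli3: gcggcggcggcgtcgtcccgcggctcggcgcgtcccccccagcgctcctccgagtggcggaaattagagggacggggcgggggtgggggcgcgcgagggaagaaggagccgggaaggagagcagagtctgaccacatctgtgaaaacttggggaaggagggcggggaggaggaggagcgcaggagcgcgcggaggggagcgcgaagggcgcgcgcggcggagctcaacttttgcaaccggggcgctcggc
Sufu: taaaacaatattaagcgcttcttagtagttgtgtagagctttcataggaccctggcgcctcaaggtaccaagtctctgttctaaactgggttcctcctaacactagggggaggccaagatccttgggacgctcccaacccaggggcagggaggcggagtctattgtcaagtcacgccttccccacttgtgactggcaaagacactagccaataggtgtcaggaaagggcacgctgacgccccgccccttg

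These sequences are from RefSeq (GRCm38.p6), written 5′ to 3′ on the strand of the gene, at chr1:119053620-119053869 for Gli2, chr13:15463473-15463722 for Gli3 and chr19:46396646-46396895 for Sufu. The Gli3 window lies inside the GENCODE span of Gli3 and overlaps an exon of another gene, Gm6556. The Gli2 and Sufu windows lie just outside the GENCODE spans of their genes. The Gli2 window held the core once, on the strand opposite to the gene and beginning 205 bases before the start, and the windows of Gli3 and Sufu held no match. The core was found in 1289 of 32851 RefSeq windows of this length (3.92%), on either strand. The longer motif GACCACCCA, which contains the core, was in 74 of them (0.225%) and in none of the 3 shown. A match is a run of letters and not a measured binding site. The G and C content of the windows was 67.2% for Gli2, 72.8% for Gli3 and 54.0% for Sufu.

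Libraries held 16645810 to 22251107 counts. Levels are given as CPM, counts scaled to a common library size over all 21 libraries, and changes as log2 fold changes of BCC against Con from the edgeR quasi-likelihood test within each model. Adjusted p-values are over all genes tested, and a gene was called at an adjusted p under 0.05. Keratinocyte markers were present in every library, with Krt5 at 7631 CPM or more and Trp63 at 603 CPM or more. The summed level of 7 such markers was lower in BCC than in Con in SmoM2 (32820 to 47831 against 48725 to 65345 CPM) and in Gnas-eKO (24297 to 43831 against 50495 to 61346 CPM), without overlap. In PKI the ranges overlapped (41414 to 69137 against 44790 to 61765 CPM). In SmoM2 4 of the 7 were called lower and 1 higher, and in PKI 1 was called each way. Krt14 changed by −1.20 in SmoM2 (edgeR adjusted p 3.65e-05), and its values in Gnas-eKO and PKI were −1.19 and −0.0029 (edgeR adjusted p 0.132 and 0.986). The part of this shift in the Gli and Sufu values was not tested. Gnas lay between 51.1 and 115 CPM in the Gnas-eKO BCC libraries and between 172 and 178 CPM in their Con libraries, a log2 fold change of −1.11 that did not pass the threshold (edgeR adjusted p 0.0647). The Gnas-eKO BCC libraries differed most among themselves. Replicates 2 and 3 had the lowest Pearson correlation over log2 CPM within any group, 0.964, and replicate 3 correlated with replicates 1 and 4 at 0.971 and 0.975, replicate 2 at 0.975 with each. In replicate 2 the Krt14 level was 11042 CPM against 3857 to 5373 CPM in the other 3 libraries and 13636 to 15201 CPM in Con. Per the file headers, the animal codes begin with BF in SmoM2 BCC and with TJ in SmoM2 Con, with no meaning given, so tumour and this code cannot be told apart there.

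**Figure D1:**
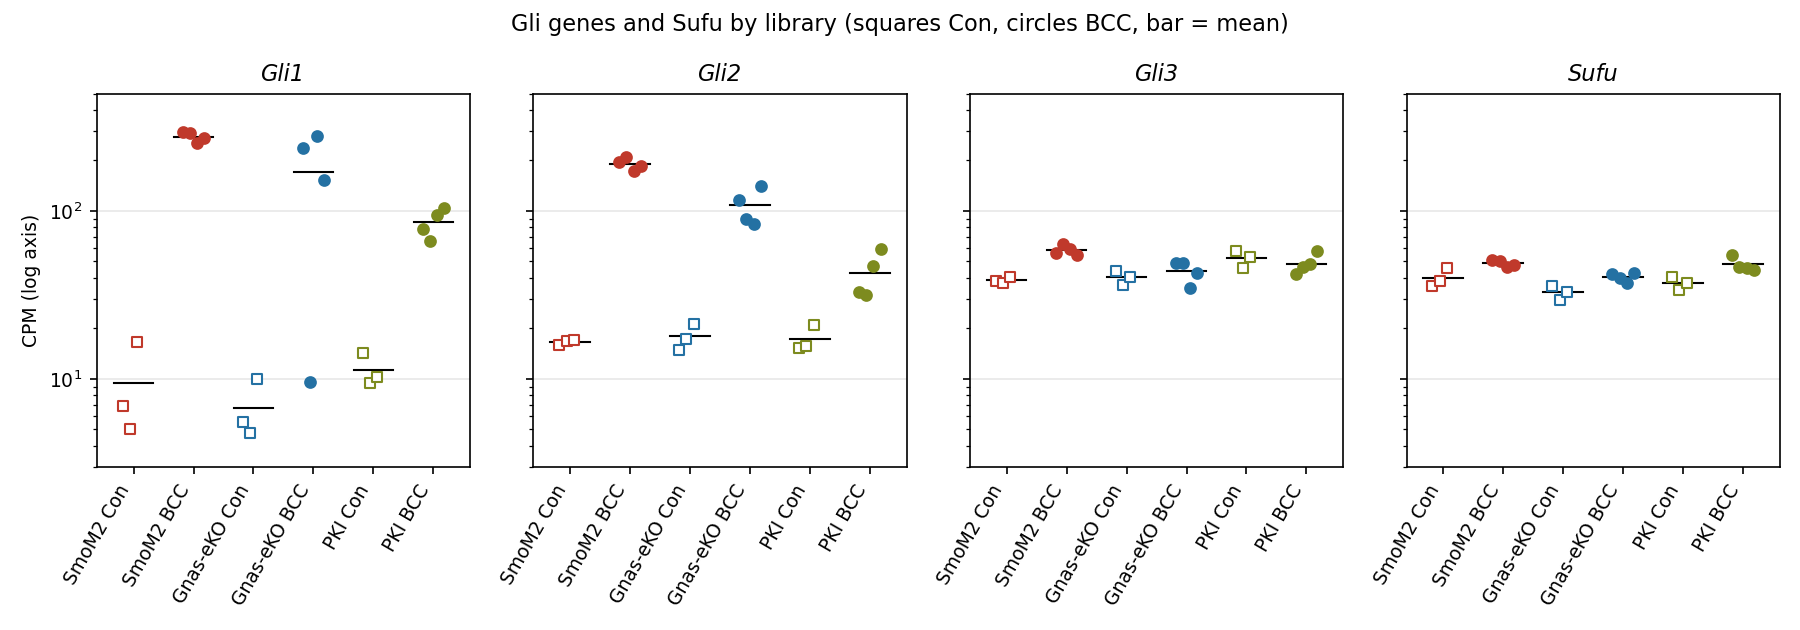
Level of each gene in each library, in CPM on a log axis, by model and by Con (open squares) or BCC (filled circles), with a bar at the group mean. Gli1 and Gli2 in BCC lie above Con except for Gli1 in Gnas-eKO BCC replicate 2 at 9.64 CPM, while Gli3 and Sufu stay between 29.6 and 63.3 CPM throughout.

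Gli2 was the member that rose past the threshold in all 3 models. In SmoM2 it measured 15.8, 16.9 and 17.0 CPM in Con and 197, 209, 173 and 184 CPM in BCC. The groups did not overlap, and the lowest BCC library lay far above the highest Con library. It rose by 3.54 on the log2 scale (SE 0.09, edgeR adjusted p 3.86e-08), with a mean of 16.6 ± 0.624 CPM in Con (SD, n = 3) and of 191 ± 15.8 CPM in BCC (SD, n = 4). In Gnas-eKO the Con libraries had 14.9, 17.4 and 21.3 CPM of Gli2, and the BCC libraries had 117, 90.0, 83.5 and 141 CPM. All 4 BCC libraries were again above Con, replicate 2 included. The change was 2.60 (SE 0.23, edgeR adjusted p 0.00699). It no longer passed without Con replicate 1 (2.48, adjusted p 0.0714) or Con replicate 2 (2.58, adjusted p 0.0763). In PKI Gli2 had 15.2, 15.7 and 21.1 CPM in Con and 32.8, 31.8, 47.0 and 59.1 CPM in BCC, a smaller separation with no overlap. There the rise was 1.31 on the log2 scale (SE 0.25, edgeR adjusted p 0.00521). RNA was taken from whole cell suspensions, so a larger share of cells that express a gene and more RNA per cell cannot be told apart here or in any result that follows.

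Gli1, the target gene of the family, varied most of the members, with an SD of 2.31 in log2 CPM over the 21 libraries against 1.45 for Gli2. In SmoM2 it had 6.93, 5.04 and 16.5 CPM in Con and 294, 291, 252 and 270 CPM in BCC. The 4 BCC libraries were close to each other, while the Con libraries spread widely around a low level. The change was 4.88 on the log2 scale (SE 0.43, edgeR adjusted p 0.000462). In PKI the levels were 14.2, 9.47 and 10.3 CPM in Con and 78.4, 66.1, 94.9 and 103 CPM in BCC. The groups did not overlap, and the change was 2.93 (SE 0.20, edgeR adjusted p 7.1e-05). In Gnas-eKO the Con libraries had 5.52, 4.75 and 9.96 CPM, and the BCC libraries had 235, 9.64, 281 and 153 CPM. Thus 3 BCC libraries were far above Con, and replicate 2 lay inside the Con range. The log2 fold change of 4.67 (SE 1.04) did not pass the threshold in the edgeR fit (adjusted p 0.0715). Without BCC replicate 2 it was 5.06 with an adjusted p of 0.000397. With all libraries it passed in the DESeq2 Wald test (adjusted p 0.000108) and in a joint edgeR fit of the 21 libraries (adjusted p 0.00108), within a range of 0.000108 to 0.287 over the alternatives. Gli1 counts were 85 to 306 in Con, against a floor of 3 counts per library.

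Gli3, the member that acts mostly as a repressor, rose in SmoM2 and did not pass the threshold in Gnas-eKO or PKI. It had 38.1, 37.2 and 40.7 CPM in SmoM2 Con and 56.4, 63.3, 59.3 and 54.3 CPM in SmoM2 BCC, which did not overlap. It rose by 0.61 on the log2 scale (SE 0.08, edgeR adjusted p 0.000377). In Gnas-eKO Gli3 had 44.0, 36.4 and 40.2 CPM in Con and 49.1, 48.8, 34.8 and 42.9 CPM in BCC. These ranges overlapped, and the change was 0.14 (SE 0.15, edgeR adjusted p 0.664). In PKI it had 57.9, 45.9 and 53.1 CPM in Con and 41.9, 46.1, 48.1 and 58.1 CPM in BCC, overlapping as well, with a change of −0.097 (SE 0.12, edgeR adjusted p 0.575).

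Sufu, the inhibitor of Gli proteins, was a little higher in the BCC libraries of every model. It had 35.7, 38.5 and 45.7 CPM in SmoM2 Con and 51.1, 50.4, 46.6 and 47.6 CPM in SmoM2 BCC. The lowest BCC library lay just above the highest Con library. The change was 0.31 on the log2 scale (SE 0.09, edgeR adjusted p 0.0342), but it no longer passed in 5 of the 7 fits that left out 1 library, without Con replicate 1 (adjusted p 0.114) or 2 (0.118) or without BCC replicate 1 (0.0761), 2 (0.0708) or 4 (0.0561), nor with the replicate number as a block (adjusted p 0.107). In Gnas-eKO Sufu had 35.9, 29.6 and 33.1 CPM in Con and 42.0, 39.7, 37.3 and 42.7 CPM in BCC. The groups did not overlap, but the change of 0.31 (SE 0.11) had an edgeR adjusted p of 0.190, not past the threshold. In PKI it had 40.2, 33.7 and 37.1 CPM in Con and 54.8, 46.6, 45.7 and 44.8 CPM in BCC. That rise was 0.39 on the log2 scale (SE 0.10, edgeR adjusted p 0.0157). It did not pass without PKI Con replicate 2 (0.33, adjusted p 0.0697).

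**Figure D2:**
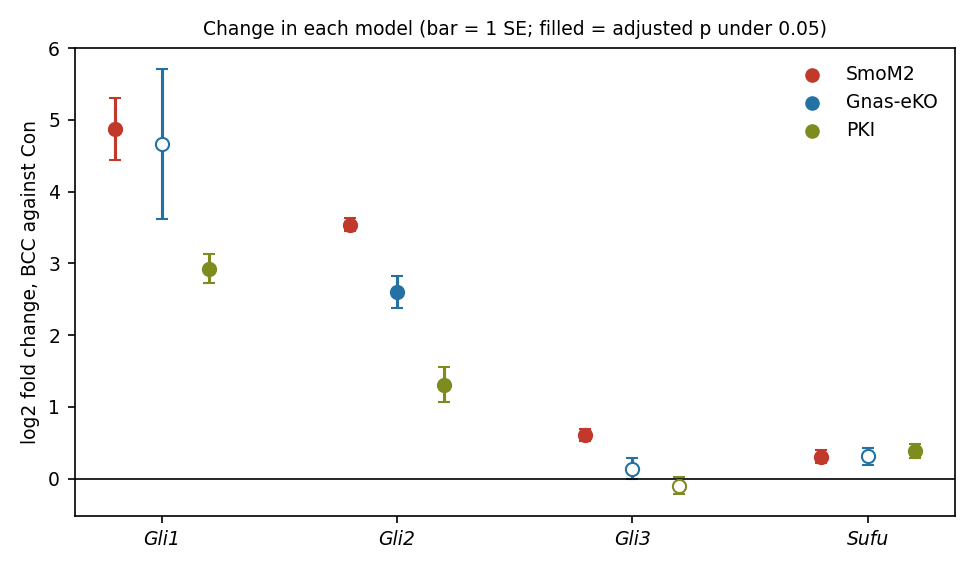
Log2 fold change of BCC against Con for each gene (x axis) in SmoM2, Gnas-eKO and PKI, with bars of 1 standard error and filled points where the edgeR adjusted p was under 0.05. Gli1 and Gli2 changes are smaller in PKI than in SmoM2, while Sufu lies between 0.31 and 0.39 in all 3 models.

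By this call 4 of the 4 genes were higher in SmoM2 BCC, where 16.2% of 16370 genes tested were called higher. In Gnas-eKO 1 of the 4 was, Gli2, against 1.46% of 16409 genes, and in PKI 3 of the 4 were, all but Gli3, against 18.7% of 16397 genes. None of the 4 was called lower in the edgeR fits, the DESeq2 Wald test or limma. At an unadjusted p under 0.05, 0 were lower as well. In SmoM2 all BCC libraries lay above all Con libraries for 4 of the 4 genes, against 19.6% of genes tested. This held for 2 of the 4 in Gnas-eKO (Gli2 and Sufu), against 9.99%, and for 3 of the 4 in PKI (Gli1, Gli2 and Sufu), against 22.4%. A Sufu separation is thus of a kind that many genes showed. The Gli1 rise was exceeded by 0.495% of the genes tested in SmoM2 and by 2.24% in PKI, and the Gli2 rise by 1.15% and 6.92%.

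Over the 6 groups Gli2 kept a strict order, SmoM2 BCC, Gnas-eKO BCC, PKI BCC and then the Con groups. The ranges of the BCC groups did not overlap each other or Con, while the 3 Con groups overlapped at means of 16.6 to 17.9 CPM. Gli1 had the same order of group means, at 277 ± 19.5 CPM, 170 ± 119 CPM and 85.7 ± 16.7 CPM (SD, n = 4 each), but the Gnas-eKO BCC range overlapped those of both neighbours. The Gli1 means of the Con groups, 6.74 to 11.3 CPM (n = 3 each), did not differ beyond their spread. For Gli3 every pair of neighbours in the order overlapped, from SmoM2 BCC at 58.3 ± 3.91 CPM (SD, n = 4) down to SmoM2 Con at 38.7 ± 1.78 CPM (SD, n = 3). PKI Con, at 52.3 ± 6.01 CPM (SD, n = 3), stood second in that order, above the PKI and Gnas-eKO BCC groups. For Sufu the BCC groups of SmoM2 and PKI, at 48.9 ± 2.14 and 48.0 ± 4.61 CPM (SD, n = 4 each), overlapped and lay above Gnas-eKO BCC at 40.4 ± 2.45 CPM (SD, n = 4), which overlapped SmoM2 Con. Levels set side by side across models also differ by batch and day.

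The size of the BCC effect was then compared between models, each pair as an interaction contrast on 14 libraries. No control library was shared between models. The effect on Gli2 was 2.23 smaller on the log2 scale in PKI than in SmoM2 (difference −2.23, SE 0.27, edgeR adjusted p 0.000126). The effect on Gli1 differed by −1.95 (SE 0.44, edgeR adjusted p 0.00851) and that on Gli3 by −0.70 (SE 0.15, edgeR adjusted p 0.00422). Thus 3 of the 4 genes had a lower effect in PKI than in SmoM2, against 12.3% of 17261 genes tested (24.9% in either direction). Sufu did not pass, at 0.080 (SE 0.14, edgeR adjusted p 0.715). The Gli1 difference was not past the threshold in the joint fit of 21 libraries (−1.95, adjusted p 0.175).

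Between PKI and Gnas-eKO, Gli2 had the lower effect in PKI, by −1.29 (SE 0.33, edgeR adjusted p 0.0290). This was 1 of the 4 genes, against 4.57% of 17254 genes tested (9.06% in either direction). It passed in 7 of the 14 fits that left out 1 library, and the adjusted p in all 14 was between 0.0138 and 0.0843. The 7 left-out libraries without which it did not pass were Gnas-eKO Con replicates 1 (adjusted p 0.0814) and 2 (0.0765), Gnas-eKO BCC replicate 4 (0.0533), PKI Con replicates 2 (0.0510) and 3 (0.0843), and PKI BCC replicates 1 (0.0534) and 2 (0.0578). Gli1 differed by −1.73 (SE 1.04, edgeR adjusted p 0.328). Without Gnas-eKO BCC replicate 2 that value was −2.13, with an adjusted p of 0.00479. Gli3 and Sufu differed by −0.23 (SE 0.20, edgeR adjusted p 0.497) and 0.081 (SE 0.15, edgeR adjusted p 0.780).

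Between Gnas-eKO and SmoM2 none of the 4 genes passed with edgeR, where 0.175% of 17151 genes did. At an unadjusted p under 0.05 there were 2, Gli2 and Gli3. Gli2 differed by −0.93 (SE 0.23, edgeR adjusted p 0.180) and passed with the DESeq2 Wald test alone among the alternatives that kept all libraries (adjusted p 0.0336, with a range of 0.0336 to 0.251). Gli3 differed by −0.47 (SE 0.17, edgeR adjusted p 0.396). Gli1 differed by −0.21 with an SE of 1.10, so a wide range of differences was not distinguished, and Sufu differed by 0.0066 with an SE of 0.14.

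Levels of different genes were compared per kilobase of exon, as CPM per kb. In the 9 Con libraries Gli3 was the most abundant Gli transcript, with 42.3% to 58.3% of the summed Gli level. Gli2 held 19.9% to 34.8% and Gli1 13.1% to 33.04% of it. In the 4 SmoM2 BCC libraries Gli1 held 61.1% to 63.0%, Gli2 30.7% to 32.0% and Gli3 6.31% to 7.57%. The PKI BCC libraries had 58.4% to 63.2% Gli1, 19.2% to 24.3% Gli2 and 16.3% to 21.2% Gli3. Gli3 thus held a smaller share in these 8 libraries than in any Con library, although Gli3 itself rose in SmoM2 and did not pass the test in PKI. In the Gnas-eKO BCC libraries Gli3 held 5.03% to 25.3%, also less than in any Con library. These shares are descriptions and were not tested.

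**Figure D3:**
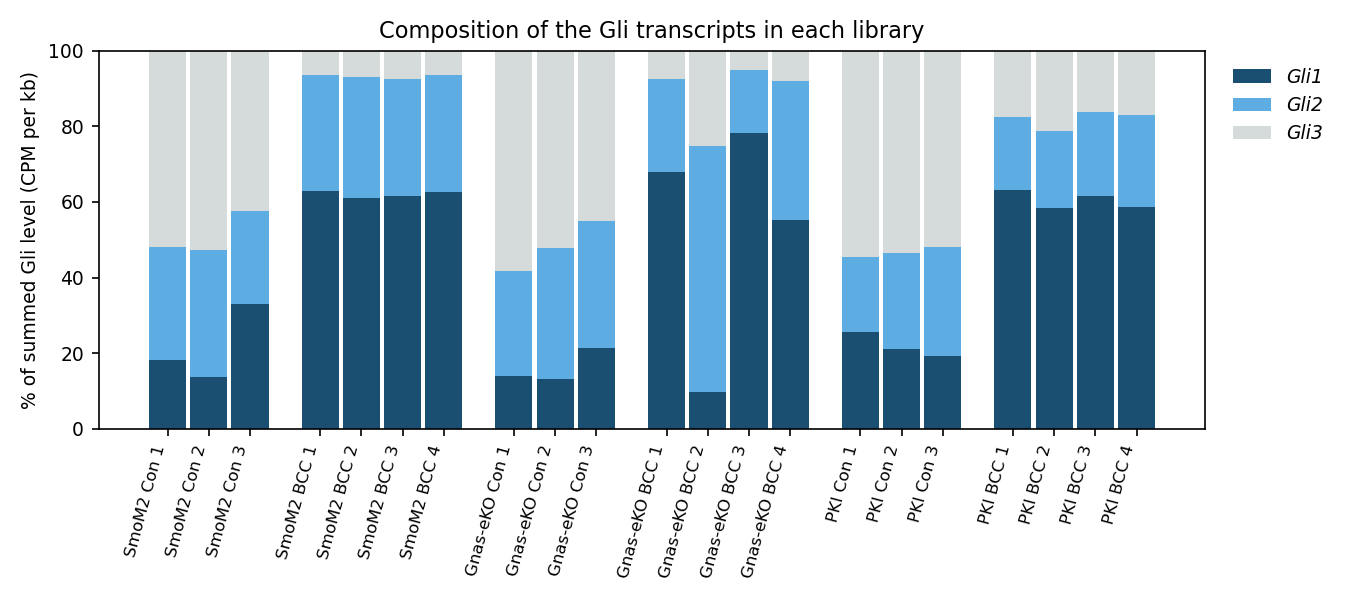
Share of Gli1, Gli2 and Gli3 in their summed level (CPM per kb of exon), 1 bar per library. Gli3 holds 42.3% or more in each Con library and 7.57% or less in each SmoM2 BCC library, and in Gnas-eKO BCC replicate 2 the largest share is that of Gli2, at 65.1%.

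The summed Gli level was 1.47 to 2.21 times the Sufu level in the 9 Con libraries. It was 13.5 to 14.5 times the Sufu level in SmoM2 BCC, 3.49 to 6.07 times in PKI BCC, and 12.7, 3.90, 14.9 and 10.0 times in Gnas-eKO BCC replicates 1 to 4. No BCC library overlapped the Con libraries in this ratio. The ratio of Gli1 to Gli2 was 1.91 to 2.05 in SmoM2 BCC and 2.41 to 3.29 in PKI BCC, so the PKI BCC libraries had less of both transcripts than SmoM2 BCC but more Gli1 for their Gli2. In Gnas-eKO BCC the same ratio was 2.77, 0.147, 4.63 and 1.501. Con libraries had 0.376 to 1.34. With the longest transcript as the length of each gene the summed Gli level was 1.08 to 1.44 times Sufu in the Con group means and 9.60 times in SmoM2 BCC, so the scale of this ratio depends on the annotated length.

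Gnas-eKO BCC replicate 2 was the library of the 21 in which Gli2 held the largest share of the Gli sum. Its Gli2 level of 90.0 CPM lay within the 83.5 to 141 CPM of the other 3 BCC libraries of the model, and its Gli1 level of 9.64 CPM lay within the Con range of 4.75 to 9.96 CPM. Gli1 made up 9.59% of the summed Gli level there, against 55.2% to 78.1% in the other 3. Ptch1, which encodes the Hedgehog receptor and is a target of Gli proteins, had 270 CPM in this library, against 30.0 to 39.0 CPM in Con and 315 to 932 CPM in the other 3. Ptch1 was thus above Con where Gli1 was not. Gnas had 89.5 CPM in this library, within the 51.1 to 115 CPM of the other 3. Its fibroblast marker Dcn was the highest of all libraries at 569 CPM, while Col1a1, another fibroblast marker, was at 2.57 CPM. The part of these differences in the Gli1 value was not tested.

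**Figure D4:**
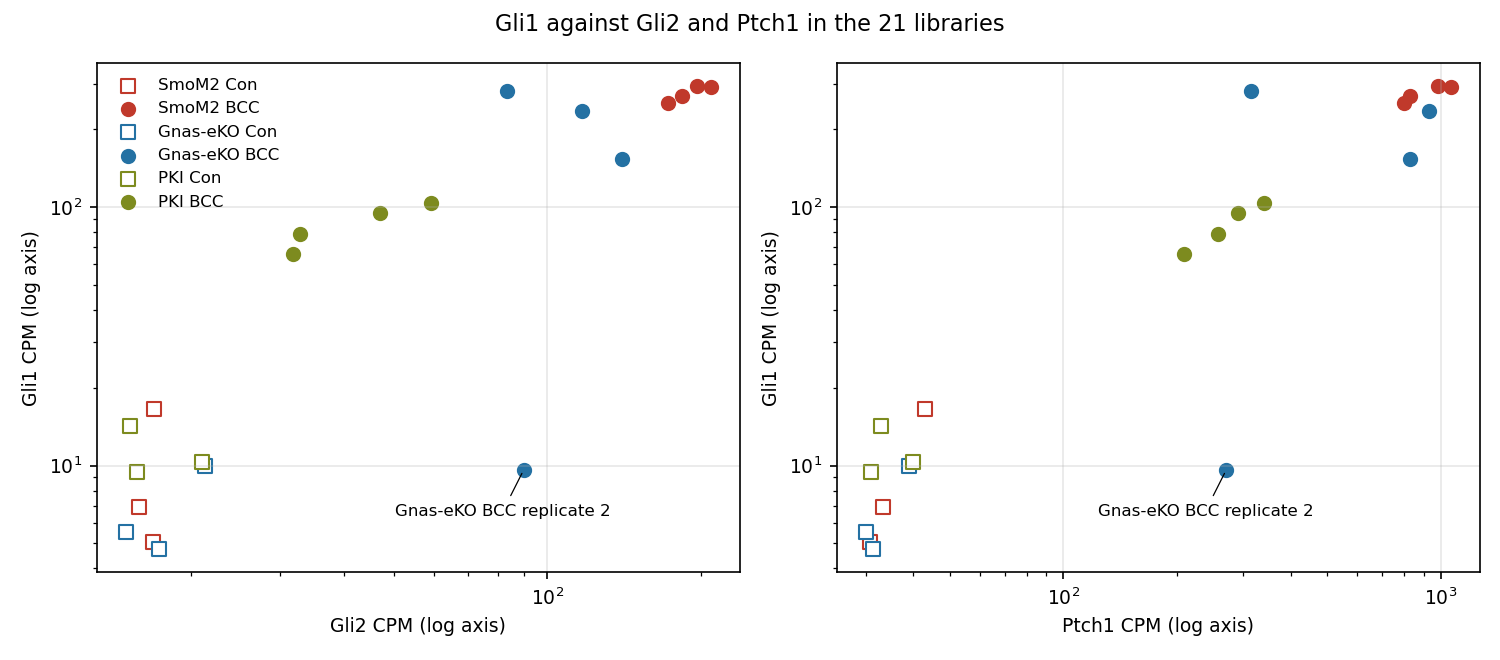
Gli1 level (y axis, CPM, log axis) against Gli2 (left) and Ptch1 (right, both CPM on log axes) in the 21 libraries, with Con as open squares and BCC as filled circles. Gnas-eKO BCC replicate 2 lies at the Gli1 level of Con, with Gli2 at 90.0 CPM and Ptch1 at 270 CPM.

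The genes around the Gli proteins were taken from lists of 69 genes besides the 4 members, of which 54 were tested in SmoM2 and in Gnas-eKO and 56 in PKI. SmoM2 had 26 of 54 higher and 4 lower, Gnas-eKO had 7 higher and 0 lower, and in PKI 17 of the 56 were higher and 8 lower (edgeR). The median log2 fold change of the lists was 0.38, 0.21 and 0.085 in these models, and 0.00054, 0.020 and −0.0012 over all genes tested. The share called in all tested genes was 29.7%, 1.63% and 34.5%, of which 13.5%, 0.165% and 15.8% of genes tested were lower. The Gnas-eKO count depended on single libraries. It was 16 without BCC replicate 2, 2 without BCC replicate 1, and 0 without Con replicate 1, 2 or 3. The count of lower genes also did, at 1 in SmoM2 without Con replicate 2 or 3 or BCC replicate 1, 2 or 4, and at 4, 3 and 5 in PKI without Con replicates 1, 2 and 3.

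Of the 8 receptors and co-receptors tested, SmoM2 had 6 that rose, Gnas-eKO had 2, and PKI had 3 that rose and 2 that fell. All genes tested were called higher at 16.2%, 1.46% and 18.7% in these models, and lower at 13.5%, 0.165% and 15.8%. Ptch1 rose by 4.70, 4.14 and 2.99 on the log2 scale in the order SmoM2, Gnas-eKO, PKI (edgeR adjusted p 3.5e-07, 0.0172 and 4.8e-05). Smo, the transducer upstream of the Gli proteins, rose by 1.55 in SmoM2 (edgeR adjusted p 1.13e-06), and the rise in PKI was 0.53 (edgeR adjusted p 0.00187). In Gnas-eKO its change of 0.85 did not pass (edgeR adjusted p 0.0503), although all 4 BCC libraries lay above all Con libraries. In PKI the co-receptors Cdon and Boc fell, by 1.22 (edgeR adjusted p 0.000178) and 0.76 (edgeR adjusted p 0.00378), while in SmoM2 Boc rose by 0.93 (edgeR adjusted p 0.000969). Of the ligands and the genes for their release, Disp1, needed to release the ligand from the cell, rose in SmoM2 (1.35, edgeR adjusted p 0.0168). The Disp1 call was lost with the replicate block (edgeR adjusted p 0.0732) and in the joint fit of 21 libraries (0.0515). It was also lost without SmoM2 Con replicate 1 (edgeR adjusted p 0.0527) or 2 (0.0538). Scube3 rose and Scube2 fell in PKI (1.58 and −1.76, edgeR adjusted p 0.00603 and 0.0239). The Scube2 call was lost without PKI Con replicate 1 (edgeR adjusted p 0.0603), 2 (0.0523) or 3 (0.0832). In Gnas-eKO 0 of the 4 tested genes of the ligand list were called with edgeR or DESeq2, and 0 had an unadjusted p under 0.05.

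Of the genes that relay the signal from Smoothened to Gli at the primary cilium, SmoM2 had 7 of 9 that rose, Gnas-eKO 4 and PKI 3. With edgeR and with DESeq2, 0 were called lower in these models, and 0 were lower at an unadjusted p under 0.05. In the same order Tulp3, which brings receptors into the cilium, rose by 2.38, 1.58 and 0.93 (edgeR adjusted p 1.37e-07, 0.0209 and 0.000482). Kif7, the kinesin that positions Gli and Sufu at the tip of the cilium, rose by 2.34, 1.84 and 1.16 (edgeR adjusted p 4.96e-06, 0.0326 and 0.0011). Evc rose by 1.30, 0.96 and 0.70 (edgeR adjusted p 0.000256, 0.0428 and 0.00748). Its partner Evc2 rose in SmoM2 and Gnas-eKO (0.72 and 0.93, edgeR adjusted p 0.00149 and 0.0475), with a change of 0.34 in PKI (edgeR adjusted p 0.139).

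Of 15 kinase and protein kinase A genes, 5 rose and 2 fell in SmoM2, and 6 rose and 2 fell in PKI. The share of all genes called higher was 16.2% in SmoM2 and 18.7% in PKI. The lower counts of the kinase genes are close to the 13.5% and 15.8% of all genes called lower there. In Gnas-eKO 0 were called with edgeR, 3 were higher at an unadjusted p under 0.05, and DESeq2 called 2 higher. Prkar1b, a regulatory subunit of protein kinase A, rose by 3.20 in SmoM2 (edgeR adjusted p 1.86e-05), where Con had 0.740 ± 0.281 CPM (SD, n = 3) and BCC had 6.88 ± 0.597 CPM (SD, n = 4). The rise in PKI was 1.02 (edgeR adjusted p 0.0390), from a mean of 0.902 to 1.82 CPM. That PKI call was lost with no filter (edgeR adjusted p 0.0508) and with the replicate block (0.0745). It was also lost without PKI Con replicate 2 (edgeR adjusted p 0.113) or 3 (0.126) or PKI BCC replicate 1 (0.0613), 3 (0.0908) or 4 (0.0597). Stk36 rose by 1.34 and 1.24 in SmoM2 and PKI (edgeR adjusted p 0.0028 and 0.0190), Prkar2b by 0.92 in SmoM2 (edgeR adjusted p 0.00103) and the casein kinase gene Csnk1e by 0.40 in SmoM2 and 0.65 in PKI (edgeR adjusted p 0.00929 and 0.000394). The Stk36 call in PKI was lost with the replicate block (edgeR adjusted p 0.0591) and without PKI Con replicate 2 (0.0665) or 3 (0.0646). Prkaca, the main catalytic subunit, did not pass in any model (0.0047, −0.27 and 0.085, edgeR adjusted p 0.965, 0.293 and 0.432). In PKI the other catalytic subunit gene Prkacb fell (−0.42, edgeR adjusted p 0.0212), and the regulatory subunit gene Prkar1a rose (0.31, edgeR adjusted p 0.0130). The Prkacb call was lost in the joint fit of 21 libraries (adjusted p 0.113) and without PKI Con replicate 1 (0.0822) or 2 (0.0725) or PKI BCC replicate 2 (0.0546). Of 10 genes for ubiquitin ligases of Gli and Sufu, Fbxw11 rose and Cul3 and Itch fell in SmoM2 (0.20, −0.31 and −0.23, edgeR adjusted p 0.0455, 0.0311 and 0.0386). The Fbxw11 call was lost with DESeq2 size factors (edgeR adjusted p 0.0523), no filter (0.0616), replicate block (0.107) and joint fit (0.212). Itch was lost with block and joint fit (edgeR adjusted p 0.0963 and 0.0544). Fbxw11 did not pass without Con replicate 1, 2 or 3 or BCC replicate 2, 3 or 4. Itch did not pass without Con replicate 1, 2 or 3 or BCC replicate 1, 2 or 4. Cul3 did not pass without Con replicate 2 or 3 or BCC replicate 1, 2 or 4. In PKI Btrc and Numb fell (−0.45 and −0.32, edgeR adjusted p 0.0261 and 0.0153), and in Gnas-eKO 0 of 10 were called with edgeR or DESeq2, or had an unadjusted p under 0.05. Btrc did not pass without PKI Con replicate 1 (edgeR adjusted p 0.0687), 2 (0.0508) or 3 (0.0886), nor Numb without PKI Con replicate 2 (0.0658). The counts called, 3 of 10 in SmoM2 and 2 of 10 in PKI, are near or under the 29.7% and 34.5% of all genes called.

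Of 10 tested Gli targets, SmoM2 had 7 that rose, Gnas-eKO had 3 and PKI had 4, and 1, the cyclin gene Ccnd2, fell in PKI (−0.63, edgeR adjusted p 0.0113). The shares of all genes called higher were 16.2%, 1.46% and 18.7%, and 15.8% were called lower in PKI. Besides Ptch1, Mycn, a growth-promoting transcription factor gene, rose in each model, by 4.54, 4.14 and 2.48 (edgeR adjusted p 0.000143, 0.0206 and 0.000489). Differences between models in the Ptch1 and Mycn changes were not tested. Among relatives of the Gli zinc fingers, Glis2 rose in SmoM2 and PKI (1.26 and 0.84, edgeR adjusted p 0.000697 and 0.00798), and Glis1 in PKI (2.52, edgeR adjusted p 0.0493) from 0.156 to 0.986 CPM. The Glis1 call was lost with DESeq2 size factors (edgeR adjusted p 0.0501) and without PKI Con replicate 2 (0.151) or 3 (0.125).

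Genes whose pattern over the 21 libraries was most like that of each member were found by the root mean square difference of log2 CPM, each gene centred on its own mean, among 12029 genes. For Gli1 these were Pla2g3 (0.68), Edn1 (0.74), which encodes endothelin-1, and Mycn (0.81), where the median over all genes was 2.28. Ptch1 was next, at 0.82, and Gli2 was in place 47 at 1.23. In Gnas-eKO BCC replicate 2 Pla2g3 had 3.32 CPM and Edn1 7.72 CPM, against 21.1 to 29.7 and 32.3 to 63.0 CPM in the other 3 BCC libraries of that model, and both lay above their Con libraries. For Gli2 they were Hspg2 (0.24), the gene of the matrix protein perlecan, Synpo (0.32), an actin-associated protein, and Cgnl1 (0.38), a junction protein, with a median of 1.45. In Gnas-eKO BCC replicate 2 Hspg2 had 286 CPM, against 254 to 723 CPM in the other 3. Gli3 was nearest to Tbc1d2b (0.14) and Ttc3 (0.15), with a median of 0.36. Sufu was nearest to St14 (0.11), Prkch (0.12) and Trim28 (0.13), with a median of 0.34. Gli3 and Sufu varied little, with SDs of 0.26 and 0.23 in log2 CPM, so many genes were near them. The libraries share model, batch and tumour state, and these values are descriptions.

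Markers of other cells moved with some of these changes. The summed level of 7 fibroblast markers was 15.8 to 44.1 CPM in the 9 Con libraries, 388 to 525 CPM in SmoM2 BCC, 95.0 to 579 CPM in Gnas-eKO BCC and 84.8 to 146 CPM in PKI BCC. Dcn exceeded all the other markers of this list combined in every BCC library, and the collagen genes Col1a1, Col1a2 and Col3a1 reached 28.9, 25.7 and 25.4 CPM. Lum, Pdgfrb and Pdgfra reached 7.75, 1.94 and 1.20 CPM at most. For Col1a1 the change was 0.36 in SmoM2, and in Gnas-eKO it was 2.98 and in PKI 2.04, none past the threshold (edgeR adjusted p 0.575, 0.0748 and 0.0575). Of these markers 3 of 7 tested were called higher in SmoM2, 1 of 7 in Gnas-eKO and 3 of 6 in PKI, and 0 lower. For these and the marker counts that follow, the shares of all genes called higher were 16.2%, 1.46% and 18.7% in these models. The shares called lower were 13.5%, 0.165% and 15.8%. The summed level of 8 leukocyte markers was 243 to 472 CPM in PKI BCC, against 31.4 to 106 CPM in PKI Con, and 7 of 8 were called higher. In SmoM2 it was 41.4 to 97.8 CPM in BCC and 64.5 to 81.4 CPM in Con, and in Gnas-eKO 73.5 to 236 and 75.7 to 107 CPM. Endothelial markers summed to 5.03 CPM at most, Merkel cell markers to 5.85 CPM and muscle markers to 0.774 CPM. In SmoM2 the endothelial sum was 2.22 to 3.33 CPM in BCC against 1.15 to 1.78 CPM in Con, and the Merkel cell sum 3.21 to 3.96 against 1.03 to 2.52 CPM, each without overlap and with 1 of 2 tested markers called higher. In PKI the Merkel cell sum was lower in BCC, at 0.619 to 1.48 CPM against 2.28 to 2.84 CPM in Con, also without overlap. The summed level of 6 dermal papilla markers was 105 to 243 CPM in SmoM2 BCC against 5.90 to 36.0 CPM in Con, with 1 of 2 tested called higher. In Gnas-eKO it was 23.5 to 78.3 CPM in BCC against 10.9 to 29.9 CPM in Con, and in PKI 6.52 to 10.2 against 6.5002 to 61.5 CPM. Hhip, which is also a Gli target, reached 215 CPM and Wif1 52.9 CPM, while Alx4, Rspo3, Sox2 and Corin reached 1.80, 1.14, 0.540 and 0.270 CPM at most, and Corin was at 0 in 13 libraries. Melanocyte markers summed to 73.5 to 119 CPM in PKI BCC, where 4 of 6 were called lower, against 156 to 204 CPM in PKI Con. In SmoM2 2 of 6 were called lower, at 111 to 162 CPM in BCC and 118 to 208 CPM in Con. The part of these cells in the Gli and Sufu values was not tested.

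Some of the rows share bases with other genes. The exons of Gli1 share 62 bases with those of Arhgap9 and 265 with those of Gm47200, both on the other strand, and those of Gli3 share 188 bases with Gm6556, also on the other strand. Whether counting used the strand is not stated in the sources used here. Arhgap9 rose in SmoM2 and PKI (1.73 and 1.74, edgeR adjusted p 0.00104 and 0.00359), and its change in Gnas-eKO was 1.92 (edgeR adjusted p 0.0650). Its levels were 0.506 to 8.16 CPM, and the part of the shared bases in these values was not tested.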

How the data were processed

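The authors deposited estimated counts per gene, of which 33.1% are not whole, with no row summing to under 10. The submitters' processing notes name bcl2fastq 2.20, cutadapt 1.18, STAR 2.7.0f, Partek and mm10. The counting step and its strand setting are not given in the sources used here. The authors also deposited a normalized signal, the count times a factor per library plus 0.001, used for alternatives. Libraries were made from mRNA with a stranded ligation kit, per the labels' protocols.

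Counts were rounded, filtered (filterByExpr), scaled by TMM and tested with edgeR 4.0.16 (R 4.3.3, robust glmQLFit and glmQLFTest, Benjamini-Hochberg adjustment over all genes tested) on the 7 libraries of a model, or 14 for a contrast of models. SEs are the absolute log2 fold change over the square root of F. Header codes differ for every library, which were taken as separate mice. No library pair within a group was as close as counting noise allows, with a chi-square over its degrees of freedom of at least 8.93. That they came from separate mice is read from the headers alone; otherwise p-values measure only the spread between libraries.

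Members and lists were chosen with earlier results of these data known. Named genes were the members, up to 3 called genes with the largest change per list and model, the 3 genes most like each member (prior count 2, mean log2 CPM at least 2), overlapping genes, and Ptch1, Smo and Prkaca. Some genes that this rule selects are not reported here. Boc, Evc2, Ccnd2, Prkacb, Prkar1a, Csnk1e in SmoM2, Gnas, Krt5, Krt14, Trp63 and single cell type markers were added after their values were seen. Alternatives were DESeq2 1.42.0, its size factors, no filter, a replicate block, a joint fit, limma 3.58.1 on log2(signal + 1), other gene lengths and leaving out each library. The edgeR step was tested on simulated data.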

Additional observations from a re-analysis of the deposited data

Results flagged for a closer look

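The BCC effects of 3 genes differed between PKI and SmoM2 by a test of the difference itself. Gli1 differed by −1.95, Gli2 by −2.23 and Gli3 by −0.70 (edgeR adjusted p 0.00851, 0.000126 and 0.00422). All 4 SmoM2 BCC libraries were above Con for each of the 3 genes. Gli2 also differed between PKI and Gnas-eKO, by −1.29 (edgeR adjusted p 0.0290). Model, day and batch cannot be told apart in these differences.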

How the results depend on the processing

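Of the values that answer a comparison, 709 stayed the same under the alternatives, and the rest follow. For a test, the same meant its direction and side of the threshold. For a count of list genes it meant a close count, and for a level or share a shift under the SD of its group. Single list genes lost their call in 124 further results, of which only some are given above. Where no cause is named, the cause was not tested. The replicate numbers were not taken as pairs in the main fits. The correlations of same-numbered deviations from their group means were −0.127 to −0.087 in SmoM2, 0.041 to 0.184 in Gnas-eKO and −0.066 to 0.282 in PKI. Libraries with different numbers were not compared in this way, so these values do not decide whether the numbers mark pairs. With the numbers as a replicate block, Sufu in SmoM2 was 0.33 (edgeR adjusted p 0.107), the Sufu difference of Gnas-eKO minus SmoM2 was −0.036, and the pathway lists had 2 lower genes in SmoM2 and 4 higher in Gnas-eKO. With the DESeq2 Wald test Gli1 in Gnas-eKO was 4.66 and passed, the Gli2 difference of Gnas-eKO minus SmoM2 was −0.93 and passed, and 16 list genes were higher in Gnas-eKO. The joint fit of 21 libraries gave Gli1 in Gnas-eKO at 4.65, now passed, the Gli1 difference of PKI minus SmoM2 at −1.95, not passed, 2 lower list genes in SmoM2, and 19 higher and 2 lower in Gnas-eKO. With limma on the normalized signal the Sufu difference of Gnas-eKO minus SmoM2 was −0.017.

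Leaving out each library in turn gave ranges of 0.23 to 0.41 for Sufu in SmoM2, 4.32 to 5.06 for Gli1 and 2.45 to 2.74 for Gli2 in Gnas-eKO, and 0.30 to 0.44 for Sufu in PKI. The differences of Gnas-eKO minus SmoM2 ranged from −0.86 to 0.18 for Gli1 and from −0.097 to 0.079 for Sufu, and that of PKI minus SmoM2 from −0.026 to 0.16 for Sufu. The differences of PKI minus Gnas-eKO ranged from −2.13 to −1.38 for Gli1 and from −1.48 to −1.12 for Gli2. List counts ranged from 1 to 4 lower in SmoM2, 0 to 16 higher in Gnas-eKO and 3 to 8 lower in PKI.

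With the longest transcript as the length, which rescales each gene by a constant, Gli1 was 68.2 CPM per kb in SmoM2 BCC, 2.79 in PKI Con and 21.1 in PKI BCC. In the order SmoM2 Con and BCC, Gnas-eKO Con and BCC, PKI Con and BCC, Gli3 was 4.73, 7.14, 4.92, 5.37, 6.40 and 5.94 CPM per kb and Sufu 8.84, 10.8, 7.26, 8.94, 8.18 and 10.6 CPM per kb. The Gli1 share of the Gli sum was then 65.5% in SmoM2 BCC and 63.1% in PKI BCC, and the Gli2 share 27.6% and 18.9%. The Gli sum over Sufu was 1.08 in SmoM2 Con, 9.60 in SmoM2 BCC, 1.28 in Gnas-eKO Con, 1.44 in PKI Con and 3.20 in PKI BCC.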

Other observations

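Hhip, a Hedgehog-binding protein gene, stood on both the receptor and the target list. SmoM2 gave it a log2 fold change of 3.81, Gnas-eKO 1.40 and PKI −2.28 (edgeR adjusted p 0.0537, 0.358 and 0.166), so none passed the threshold. Its Con levels spread widely, from 1.38 to 29.0 CPM in SmoM2 and from 1.70 to 52.1 CPM in PKI. Gnas was higher in the BCC libraries of the other models, by 0.68 in SmoM2 and 0.25 in PKI (edgeR adjusted p 5.49e-05 and 0.0311).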
